A study of Mus musculus with 20 samples.

Results

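The 48 genes described here encode enzymes of glutathione and redox metabolism, out of 16593 genes measured on the arrays. The rule that picks them reads gene symbols and no measured value, although it was written with earlier results of these data known. The choice took the cytosolic glutathione transferases of the Gsta, Gstm, Gstp, Gstt and Gsto classes, the glutathione peroxidases (Gpx) and the peroxiredoxins (Prdx). To these it added the microsomal transferases Mgst1 to Mgst3, the synthesis genes Gclc, Gclm and Gss, and Txn1, Txnrd1, Srxn1, Nqo1, Hmox1, Cat, Sod1, Sod2, Sod3, Cbr1 and Cbr3. Together they had 73 of the 25697 probes, and where a gene had several probes, as 18 did, the brightest stood for it. Gsr, Prdx5 and Prdx6 were not analysed here. By role the genes comprised 22 transferases, 8 glutathione peroxidases, 5 peroxide-removing enzymes (4 peroxiredoxins and catalase), 4 quinone, heme and carbonyl enzymes, 3 synthesis genes, 3 superoxide dismutases and 3 genes of the thioredoxin and sulfiredoxin system.

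Total RNA of 20 mouse samples was labelled with biotin and hybridised to Illumina bead arrays, with 4 arrays in each of 5 titled groups. The group sFB-protein-iPS, called iPS cells below, is by its title made of induced pluripotent stem cells, somatic cells returned to a state like that of the early embryo. E14-mES and C57-mES are by their titles mouse embryonic stem (ES) cells, and GFPoct4 was taken as another ES line, which only the source and cell type fields say. The last group is FVB-sFB, and the series as a whole is named for fibroblasts of the skin. Its source and cell type fields nevertheless name the same cells as for the ES lines, so the labels conflict, and the titles were followed. No treatment, strain, passage number, sex or culture condition is given beyond these names, and the words sFB and protein are not explained. The labels do not say whether the 4 arrays of a group came from separate cultures, so the p-values measure spread among arrays that may be technical. The small number of arrays sets the precision.

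Glutathione is a tripeptide that cells hold at high concentration in its reduced form. It is made by glutamate-cysteine ligase, whose catalytic subunit is Gclc and whose modifier subunit is Gclm, followed by glutathione synthetase, Gss. Glutathione transferases join it to electrophiles, glutathione peroxidases spend it to reduce peroxides, and the thioredoxin system keeps peroxiredoxins in their working state in parallel. Many of these genes are known targets of the transcription factor NRF2 (gene Nfe2l2), which the adaptor KEAP1 holds down and which binds antioxidant response elements together with small MAF proteins. BACH1 occupies the same elements and represses, Hmox1 being a well known target. In pluripotent cells and fibroblasts alike these systems handle the peroxide and superoxide that respiration makes.

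Values are log2 intensities after background correction with an offset and quantile normalization, so a step of 1 on this scale doubles the intensity. A background level was set on each array from 1305 probes of olfactory and vomeronasal receptor genes and ranged from 6.69 to 6.85. A probe at or under it on every array of a group has only an upper bound there, and its fold is then written as "at least". A gene was called where the limma test gave an adjusted p under 0.05 over all 16593 genes and the log2 fold change was at least 1 in size. Raw median intensity ranged from 94.4 to 179 over the arrays, and E14-mES array 4 had the highest. It gave the lowest value of its group for 38 of the 48 genes (79.2%), with a median of -0.46 against the other 3 arrays. It was also the lowest for 32.0% of all genes and for 42.8% of the 2935 genes with a group mean over 10, so it stood apart beyond these 48. Calls that rest on E14-mES were therefore also computed without that array, and those lost or added are named. Within FVB-sFB the arrays fell into pairs, and arrays 1 and 2 did not overlap with arrays 3 and 4 for 29 of the 48 genes (60.4%), against 48.1% of all genes and 59.3% of genes above background on those arrays. The gap between the pairs exceeded 1 for Gsta3 and Gstp2, and results against FVB-sFB were also computed without each pair. The 8 pluripotent markers examined were all higher in the iPS cells and in the ES lines than in FVB-sFB, and all 7 fibroblast markers measured were lower. Of 4 macrophage markers Lyz2 was bright in FVB-sFB, while Ptprc, Adgre1 and Itgam did not exceed background in any group. In whole-sample RNA, fewer cells of a type and less RNA per cell cannot be told apart.

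Sequences upstream of the start site are shown for 2 sets of genes whose readings are described below: genes with the core of the antioxidant response element, and the Gstp neighbours, which lie side by side on chromosome 19 and read so differently in FVB-sFB. RefSeq promoter windows (GRCm38.p6) of 300 bases, from 250 before the start to 50 after it, were found for 43 of the 48 genes; Gclc, Gsta4, Gstt2, Hmox1 and Sod3 had no window. The core searched was TGACNNNGC on either strand, with any overlap with other motifs left aside. It stood in 8 of 55 windows of these genes (14.5%) and in 4071 of 32851 windows overall (12.4%), so the share was close to that of all promoters. In 7 genes a core lay before the start: Gsta3, Gstm5, Gclm, Prdx1, Mgst1, Txnrd1 and Sod1. Their readings ranged from a large deficit in the pluripotent cells (Mgst1, Gstm5) to a surplus (Sod1) and to no call in any comparison (Prdx1, Txnrd1). A match of letters is a description and not a binding site. In the 4 stretches below, capitals mark the core or its reverse complement, and each is given 5′ to 3′ on the gene's strand, which is the plus strand for all 4.
Gclm, chr3:122245393-122245461: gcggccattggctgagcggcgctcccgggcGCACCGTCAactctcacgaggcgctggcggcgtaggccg
Mgst1, chr6:138140441-138140509: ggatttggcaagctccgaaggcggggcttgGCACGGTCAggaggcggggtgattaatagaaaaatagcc
Gstm5, chr3:107895782-107895850: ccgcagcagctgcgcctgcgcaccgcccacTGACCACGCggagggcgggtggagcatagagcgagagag
Sod1, chr16:90220676-90220744: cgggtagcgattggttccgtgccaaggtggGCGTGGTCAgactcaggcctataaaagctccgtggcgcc
The 100 bases before the start of the Gstp genes, all on the minus strand of chromosome 19, follow with no capitals, since TGACNNNGC does not occur in them. Variants of that core were not searched, so their absence is not implied.
Gstp1, chr19:4037913-4038012: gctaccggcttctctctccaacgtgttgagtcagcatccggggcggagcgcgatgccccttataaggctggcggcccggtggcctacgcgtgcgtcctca
Gstp2, chr19:4042222-4042321: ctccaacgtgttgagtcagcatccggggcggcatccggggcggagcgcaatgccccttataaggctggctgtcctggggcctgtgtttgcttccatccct
Gstp3, chr19:4059448-4059547: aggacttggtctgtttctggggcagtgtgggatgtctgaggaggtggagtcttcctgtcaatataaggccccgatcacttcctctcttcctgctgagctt
In a global alignment Gstp1 and Gstp2 were identical over 63.5% of the aligned columns, Gstp1 and Gstp3 over 46.4%, and Gstp2 and Gstp3 over 48.6%.

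Of the 48 genes, 35 lay above background on all 20 arrays, 9 on some of them, and 4 (Gpx5, Gsta2, Gstm3 and Gstt4) on none. The highest group mean fell in iPS cells for 11 genes, in E14-mES for 3, in GFPoct4 for 5, in C57-mES for 7 and in FVB-sFB for 22. The lowest mean fell most often in E14-mES (15 genes) and GFPoct4 (14). The heat map of all genes and arrays shows these patterns by role. The 16 genes called in no comparison, each read by its brightest probe, were Cbr1, Gclc, Gpx5, Gpx6, Gsta1, Gsta2, Gstm3, Gstm4, Gstt4, Mgst3, the 4 peroxiredoxins, Txn1 and Txnrd1.

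**Figure D1:**
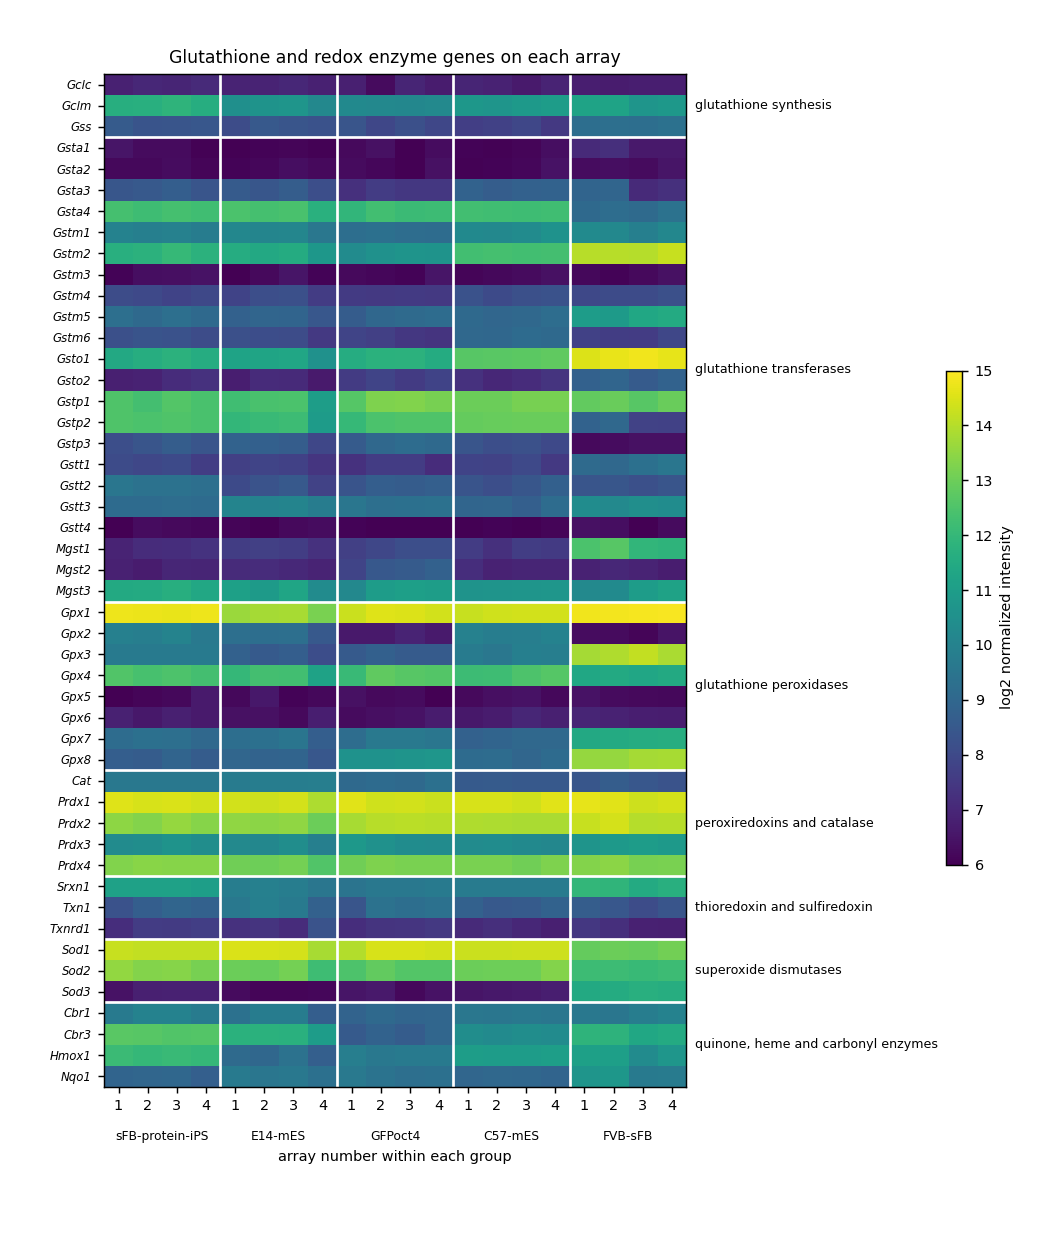
Log2 normalized intensity (colour) of the 48 genes (rows, by role) on the 20 arrays (columns, 4 in each group). Mgst1, Gpx8, Gpx3 and Sod3 are brighter on the 4 FVB-sFB arrays than on the 16 others, and Gstp2 and Gsta4 are the other way round. E14-mES array 4 is darker than its group in 38 rows.

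In the first comparison, iPS cells against FVB-sFB, 23 of the 48 genes were called, 11 higher and 12 lower, where 23.2% of all genes were called (11.7% higher and 11.5% lower). Their median log2 fold change was -0.07, against 0.03 over all genes, and the calls ran in both directions. The lower genes included Mgst1, a microsomal transferase (34.2-fold lower), Gpx8 (31.5-fold), Sod3 (at least 26.6-fold) and Gpx3 (18.9-fold). The higher genes included Gstp2 (17.6-fold higher), Gpx2 (at least 8.48-fold), Gsta4 (8.41-fold) and Gstp3 (at least 3.07-fold). In each of the 23 genes the iPS and FVB-sFB arrays did not overlap. A call of this size makes that likely, so it adds nothing to the calls. The split depended on the scaling for small increases: with median centring in place of quantile normalization it was 4 higher and 14 lower, and with the deposited log2 values left as they are 4 higher and 18 lower. In both, the calls of Cat, Cbr3, Gpx4, Gstt2, Hmox1, Sod1 and Sod2 were lost, with log2 fold changes of 0.56 to 0.99 under median centring and 0.08 to 0.54 with the deposited values. Under these settings the median over all genes itself stood at 0.14 and at -0.41. Of all genes 3761 and 4351 were called, with 33.9% and 16.4% of those higher.

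The mean of the 3 ES lines differed from FVB-sFB in 18 genes, 5 higher and 13 lower, against 22.8% of all genes (11.8% higher and 11.1% lower). This comparison shares its 4 FVB-sFB arrays with the first one, so its values are given only as its own. The median over the 48 genes was -0.24, against 0.01 over all genes. Sod3 (at least 28.4-fold lower), Gpx3 (31.4-fold), Mgst1 (23.5-fold) and Gpx8 (18.1-fold) were lowest relative to FVB-sFB, and Gstp2 (16.3-fold higher) and Gsta4 (7.95-fold) highest. All 18 calls held with median centring and with the deposited values, which added Gstt3, Hmox1 and Nqo1 on the lower side. Of all genes 3865 and 3719 were called under these settings.

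**Figure D2:**
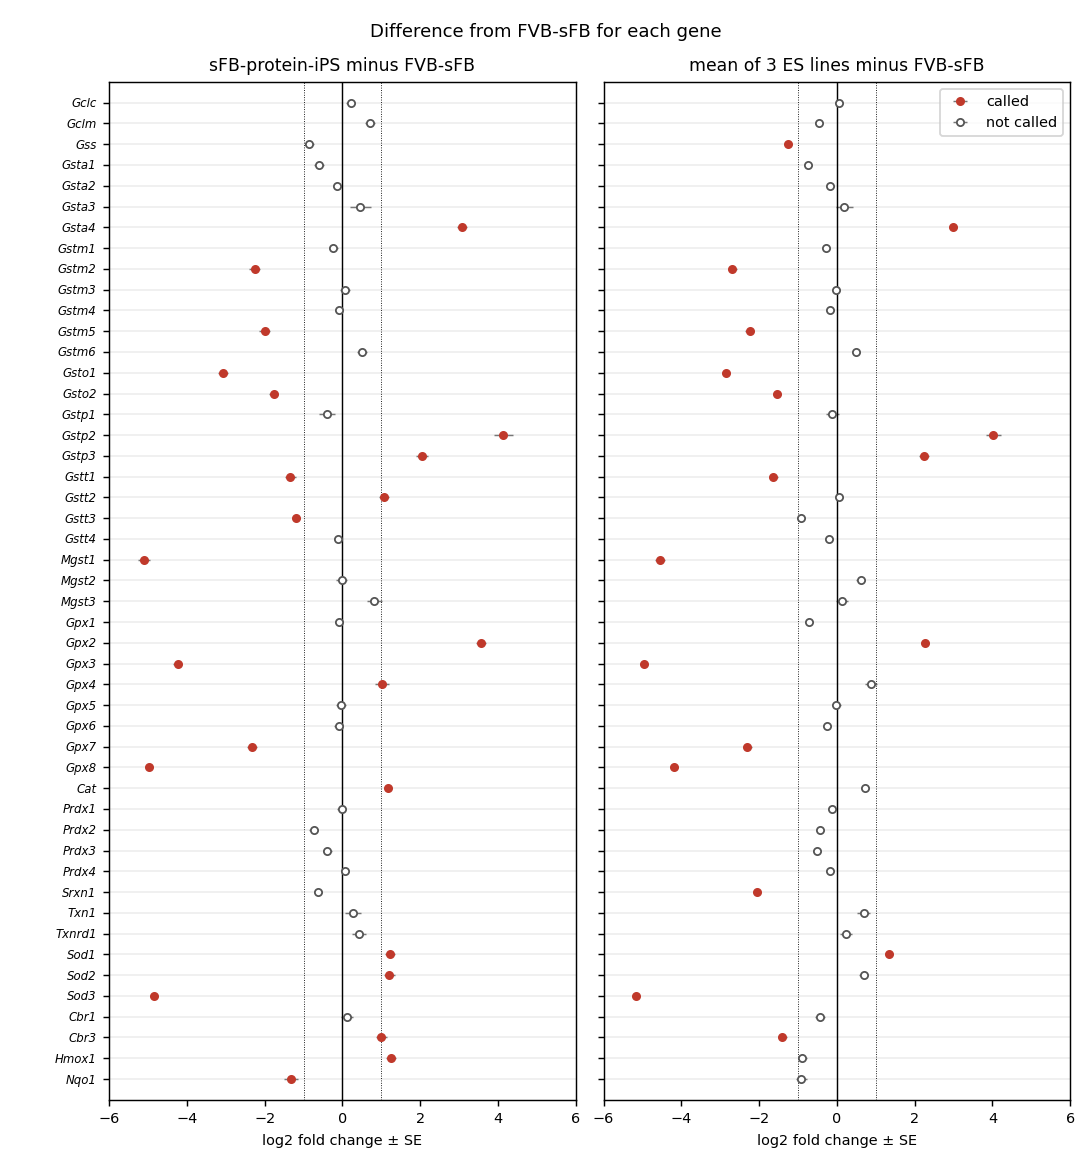
Log2 fold change ± SE (horizontal axis) of each gene (rows, by role) for iPS cells minus FVB-sFB (left, n = 4 arrays each) and the mean of the 3 ES lines minus FVB-sFB (right, n = 12 and 4). Filled points are called genes and dotted lines mark a log2 fold change of 1 in size; Mgst1, Gpx8, Sod3 and Gpx3 lie beyond -4 in both panels and Gstp2 beyond 4.

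Between iPS cells and the mean of the 3 ES lines, 6 of the 48 genes were called, all higher in iPS cells, against 3.34% of all genes (1.52% higher and 1.82% lower). They were Cbr3 (5.31-fold), Hmox1 (4.41-fold), Srxn1 (2.67-fold), Gpx2 (2.46-fold), Gclm (2.26-fold) and Gstt2 (2.03-fold). The median was 0.13 over the 48 genes and 0.01 over all genes. With median centring 3 of these calls remained (Cbr3, Hmox1 and Srxn1) and Gpx8 was added on the lower side. With the deposited values Cbr3 and Hmox1 remained, with Gpx8, Nqo1 and Txn1 added as lower. Of all genes 797 and 1437 were called under these settings. Without E14-mES array 4 the call of Gstt2 was lost at 0.98 and the others stayed. The Gstt2 call was also lost without iPS array 1 (0.98), GFPoct4 array 1 or C57-mES array 2 (0.99 each), and with no background correction (0.99). The shares called in every comparison are set beside those of all genes in the bar chart.

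**Figure D3:**
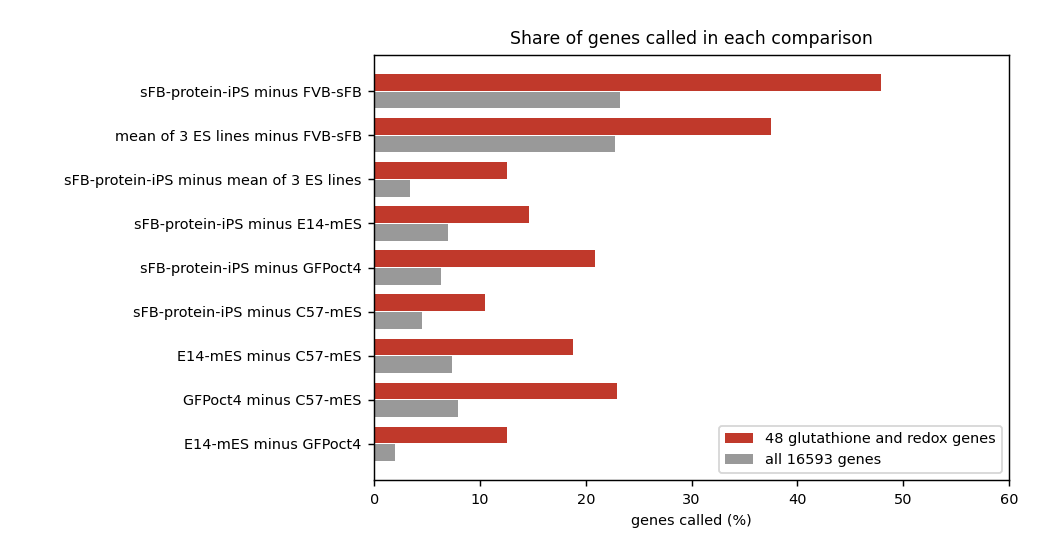
Share of genes called (horizontal axis, percent) in each of the 9 comparisons, for the 48 glutathione and redox genes (red) and all 16593 genes (grey). The red bars run from 10.4% to 47.9% and the grey bars from 1.96% to 23.2%, and in each comparison the red bar is the longer. The bars use quantile normalization. With median centring or the deposited values the order was reversed for iPS cells against E14-mES. The 2 sets were not matched for brightness. On an array 48.2% to 53.5% of all probes exceeded background, while 35 of the 48 genes did so on all 20 arrays.

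Glutathione synthesis was described by 3 genes. Gclm, the modifier subunit that makes the ligase work at cellular glutamate levels, read 11.66, 11.67, 11.85 and 11.59 on the iPS arrays. On the ES arrays it read 10.49, 10.61, 10.70 and 10.19 in E14-mES, 10.27, 10.19, 10.18 and 10.24 in GFPoct4 and 10.77, 10.70, 10.85 and 10.98 in C57-mES, and in FVB-sFB 11.22, 11.21, 10.70 and 10.81. The iPS arrays all lay above the other 16. Against the mean of the ES lines Gclm was higher by 1.18 ± 0.10 (log2 fold change ± SE, adjusted p = 3.04e-10), while against FVB-sFB the 0.71 did not reach the size set for a call. Gss, the synthetase, averaged 8.43 ± 0.11 in iPS cells, 8.31 ± 0.18 in E14-mES, 8.10 ± 0.23 in GFPoct4, 7.71 ± 0.18 in C57-mES and 9.29 ± 0.05 in FVB-sFB (SD, n = 4 arrays each). It was lower in the ES lines than in FVB-sFB (-1.25 ± 0.09, adjusted p = 5.38e-12), and for iPS cells the value was -0.86. Gclc, the catalytic subunit, lay close to background in every group, with means between 6.67 and 6.95, and was not called.

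Among the transferases of the alpha class Gsta4, known for conjugating the lipid peroxidation product 4-hydroxynonenal, was bright in all pluripotent cells. It read 12.35, 12.20, 12.34 and 12.23 in iPS cells, 12.44, 12.34, 12.41 and 11.70 in E14-mES, 11.92, 12.29, 12.15 and 12.16 in GFPoct4 and 12.26, 12.26, 12.19 and 12.24 in C57-mES, against 9.09, 9.22, 9.11 and 9.41 in FVB-sFB. All 16 pluripotent arrays lay above the FVB-sFB arrays. The log2 fold change was 3.07 ± 0.12 for iPS cells (adjusted p = 2.72e-17) and 2.99 ± 0.10 for the ES lines (adjusted p = 4.35e-19), and among the pluripotent groups no call was made. Gsta3, another member of the class, split the FVB-sFB arrays. It read 8.41, 8.52, 8.70 and 8.39 in iPS cells, 8.58, 8.42, 8.66 and 8.17 in E14-mES, 7.26, 7.61, 7.47 and 7.47 in GFPoct4 and 8.83, 8.65, 8.80 and 8.81 in C57-mES, and in FVB-sFB 8.90, 8.93, 7.07 and 7.25. Arrays 1 and 2 of FVB-sFB thus read above every pluripotent array and arrays 3 and 4 below every one. Over all 4 arrays neither comparison with FVB-sFB called Gsta3 (iPS cells 0.46, ES lines 0.19), and without arrays 1 and 2 both did (1.34 and 1.06). GFPoct4 was the low ES line. iPS cells exceeded it by 1.05 ± 0.27 (adjusted p = 0.00299) and E14-mES by 1.00 ± 0.27 (adjusted p = 0.00873), and GFPoct4 lay below C57-mES (-1.32 ± 0.27, adjusted p = 0.00029). Those calls use the brighter of its probes. The other exceeded background on 2 arrays, and with the mean of both all 3 calls were lost. Gsta1 lay above background on the first pair of FVB-sFB arrays (7.06 and 7.20), and Gsta2 on no array.

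The mu class genes lie side by side on chromosome 3 in the order Gstm5, Gstm6, Gstm3, Gstm2, Gstm1 and Gstm4, and their readings did not move together. Gstm2, a transferase of this class, read 11.69, 11.80, 12.03 and 11.78 in iPS cells. In the ES lines it read 11.57, 11.45, 11.54 and 10.77 (E14-mES), 10.36, 10.57, 10.65 and 10.64 (GFPoct4) and 12.27, 12.33, 12.28 and 12.32 (C57-mES), and in FVB-sFB 14.02, 14.05, 14.02 and 14.25. Every FVB-sFB array lay above every pluripotent one, and GFPoct4 lay lowest. Gstm2 was lower than in FVB-sFB in iPS cells (-2.26 ± 0.13, adjusted p = 3.56e-14) and in the ES lines (-2.69 ± 0.11, adjusted p = 9.02e-18). Its 3 probes gave -2.47 to -2.26 in iPS cells and -2.87 to -2.69 in the ES lines. Between ES lines GFPoct4 was below C57-mES (-1.75 ± 0.13, adjusted p = 3.63e-11). Gstm5, at the end of the row, was likewise lower in iPS cells (9.19 ± 0.13) than in FVB-sFB (11.18 ± 0.29; SD, n = 4 each), a 4.0-fold difference, and 4.73-fold lower in the ES lines. Its upstream stretch is among those printed above. Gstm1 and Gstm4, next to Gstm2, were not called against FVB-sFB (Gstm1 -0.23 and -0.28, Gstm4 -0.09 and -0.18). Gstm6 averaged 7.97 ± 0.31 in E14-mES and 7.59 ± 0.23 in GFPoct4, against 9.07 ± 0.06 in C57-mES (SD, n = 4 each), and was called lower in both (-1.10 and -1.48), although the E14-mES call was lost without its array 4 (-0.94). Probe sequences were not part of the files used, so signal shared between these closely related transcripts cannot be measured here.

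The pi class showed the sharpest contrast between neighbours. Gstp1, the pi transferase found in most dividing cells, read 12.50, 12.30, 12.60 and 12.41 in iPS cells, 12.25, 12.43, 12.45 and 11.00 in E14-mES, 12.62, 13.26, 13.28 and 13.15 in GFPoct4, 12.97, 12.99, 13.16 and 13.15 in C57-mES and 12.85, 12.94, 12.68 and 12.93 in FVB-sFB. It was bright everywhere and not called against FVB-sFB (-0.40 for iPS cells and -0.12 for the ES lines). Of its 3 probes, 1 did not exceed background on any array. As in the mu class, signal shared between Gstp1 and Gstp2 cannot be measured here. Gstp2, which encodes a protein nearly identical to that of Gstp1 in the mouse, read 12.53, 12.46, 12.52 and 12.40 in iPS cells, 11.96, 12.10, 12.16 and 10.95 in E14-mES, 12.04, 12.45, 12.53 and 12.52 in GFPoct4 and 12.86, 12.91, 12.93 and 12.96 in C57-mES. In FVB-sFB it read 8.81, 9.03, 7.76 and 7.75, below all 16 pluripotent arrays. The log2 fold change was 4.14 ± 0.24 for iPS cells (17.6-fold, adjusted p = 3.97e-14) and 4.03 ± 0.19 for the ES lines (adjusted p = 7.24e-16). Its size turned on the FVB-sFB pairs, being 4.72 without arrays 1 and 2 and 3.56 without arrays 3 and 4 in iPS cells, and 4.61 and 3.44 in the ES lines. Gstp3 read 8.17, 8.37, 8.65 and 8.37 in iPS cells, 8.82, 8.78, 8.66 and 7.93 in E14-mES, 8.59, 9.05, 9.18 and 9.09 in GFPoct4 and 8.37, 8.18, 8.24 and 8.0 in C57-mES, and 6.23, 6.31, 6.42 and 6.41 in FVB-sFB, where no array exceeded background. It was at least 3.07-fold higher in iPS cells (adjusted p = 9.94e-12) and at least 3.49-fold higher in the ES lines (adjusted p = 2.09e-14). Among ES lines E14-mES fell below C57-mES in Gstp1 (-1.04) and Gstp2 (-1.12) and below GFPoct4 in Gstp1 (-1.04), and none of these calls held without E14-mES array 4 (-0.69, -0.84 and -0.70).

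Omega and theta class genes also lie as neighbours, on chromosomes 19 and 10. Gsto1, which reduces dehydroascorbate and arsenic compounds, read 11.44, 11.59, 11.79 and 11.57 in iPS cells, 11.21, 11.27, 11.32 and 10.56 in E14-mES, 11.57, 11.76, 11.77 and 11.54 in GFPoct4, 12.67, 12.71, 12.72 and 12.81 in C57-mES and 14.52, 14.71, 14.81 and 14.67 in FVB-sFB. FVB-sFB was highest and C57-mES next, with no overlap between either and the other groups. Gsto1 was 8.44-fold lower in iPS cells than in FVB-sFB (-3.08 ± 0.13, adjusted p = 3.15e-17) and 7.21-fold lower in the ES lines (-2.85 ± 0.10, adjusted p = 1.49e-18). It was also lower than in C57-mES in iPS cells (-1.13), E14-mES (-1.64) and GFPoct4 (-1.07). Gsto2, its neighbour, was lower than in FVB-sFB too (-1.77 ± 0.12 in iPS cells and -1.53 ± 0.10 in the ES lines), with 3 of 4 iPS arrays and 11 of 12 ES arrays above background. In the theta class, which works on small halogenated compounds, Gstt1 and Gstt2 moved in opposite directions in iPS cells. Gstt1 was lower than in FVB-sFB in iPS cells (-1.34 ± 0.13, adjusted p = 2.52e-09) and in the ES lines (-1.64 ± 0.11, adjusted p = 7.33e-13). Gstt2 read 9.52, 9.39, 9.38 and 9.30 in iPS cells, 8.01, 8.32, 8.50 and 7.76 in E14-mES, 8.33, 8.68, 8.60 and 8.71 in GFPoct4 and 8.33, 8.18, 8.4 and 8.76 in C57-mES, against 8.36, 8.41, 8.18 and 8.37 in FVB-sFB. The iPS arrays lay above all others, by 1.07 ± 0.13 over FVB-sFB (adjusted p = 1.34e-07), 1.02 ± 0.11 over the ES lines (adjusted p = 3.59e-08) and 1.25 ± 0.13 over E14-mES (adjusted p = 2.91e-08). As given above, the call over the ES lines met the size narrowly and was lost under several alternatives. Gstt3 read 9.13, 9.15, 9.23 and 9.14 in iPS cells, 10.05, 10, 10.06 and 9.78 in E14-mES, 9.52, 9.30, 9.31 and 9.35 in GFPoct4, 8.92, 8.96, 8.71 and 9.18 in C57-mES and 10.37, 10.24, 10.45 and 10.39 in FVB-sFB. It was lower in iPS cells than in FVB-sFB (-1.20 ± 0.10, adjusted p = 3.6e-11) and higher in E14-mES than in C57-mES (1.03 ± 0.10, adjusted p = 2.64e-09); that second call was lost without E14-mES array 3, at just under 1, or C57-mES array 3 (0.95).

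Microsomal transferases sit in membranes and also reduce lipid peroxides. Mgst1 read 6.91, 7.16, 7.17 and 7.32 in iPS cells, 7.64, 7.69, 7.64 and 7.27 in E14-mES, 7.70, 7.93, 8.16 and 8.15 in GFPoct4 and 7.59, 7.24, 7.65 and 7.52 in C57-mES. On the FVB-sFB arrays it read 12.47, 12.67, 11.94 and 11.86, far above all pluripotent arrays, which reached 8.16 at most. The difference was -5.10 ± 0.15 for iPS cells (adjusted p = 4.92e-20) and -4.55 ± 0.12 for the ES lines (adjusted p = 4.27e-21). A second Mgst1 probe did not exceed background on any array. Mgst2, which can also act as a leukotriene C4 synthase, separated GFPoct4 from the rest: it read 6.82, 6.69, 6.96 and 6.93 in iPS cells, 7.11, 7.14, 7.04 and 6.90 in E14-mES, 7.84, 8.48, 8.57 and 8.80 in GFPoct4, 7.18, 6.88, 6.92 and 6.94 in C57-mES and 6.85, 6.99, 6.91 and 6.73 in FVB-sFB. All GFPoct4 arrays lay above the other 16, of which 2 in iPS cells and 1 in FVB-sFB did not exceed background. GFPoct4 exceeded C57-mES by 1.44 ± 0.14 (adjusted p = 2.83e-09). iPS cells (-1.57 ± 0.14, adjusted p = 8.27e-10) and E14-mES (-1.37 ± 0.14, adjusted p = 2.92e-08) lay below GFPoct4. Mgst3 was bright in all groups and was not called, with 0.82 in iPS cells against FVB-sFB.

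**Figure D4:**
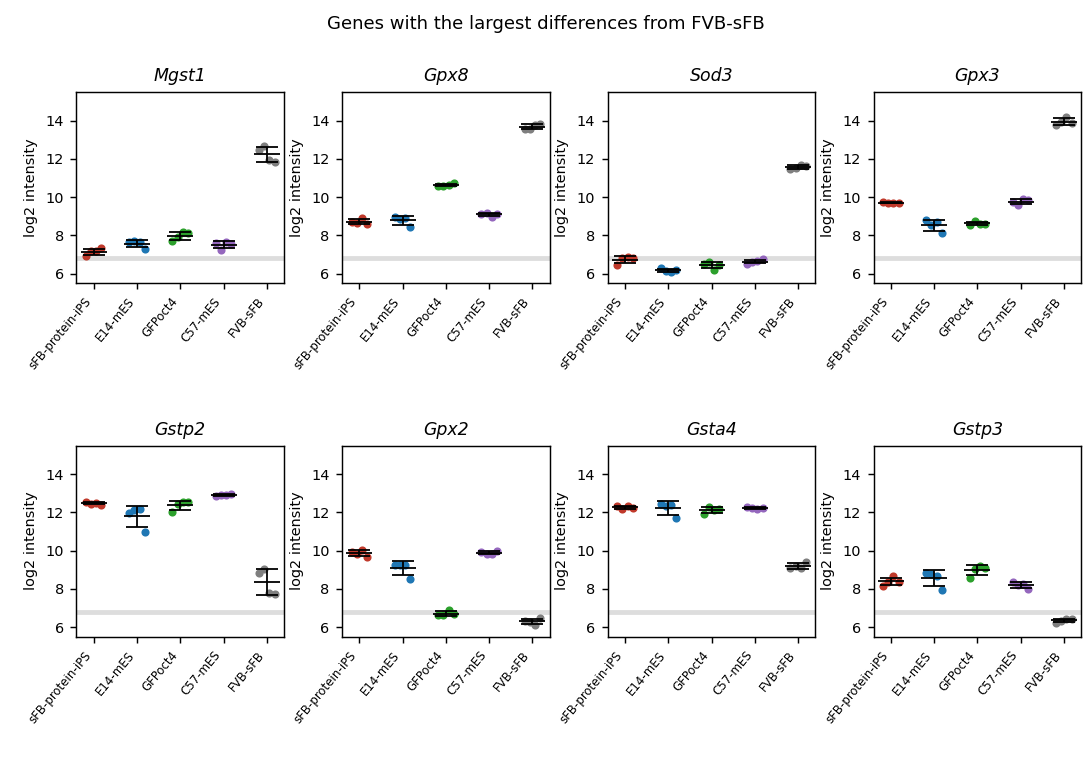
Log2 intensity (vertical axis) of 8 genes on each array (points) of the 5 groups, with mean and SD (bars) and the range of the background level (grey band). Mgst1, Gpx8, Sod3 and Gpx3 are highest in FVB-sFB and Gstp2, Gpx2, Gsta4 and Gstp3 lowest, Gpx2 being near the band in GFPoct4 as well.

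The glutathione peroxidases gave 2 higher and 3 lower genes of 8 in iPS cells against FVB-sFB, where 11.7% of all genes were higher and 11.5% lower. In the ES lines 1 was higher and 3 were lower, against 11.8% and 11.1% of all genes. Gpx5 and Gpx6, also among the 8, lay at or near background. Gpx3, the secreted plasma form, read 9.73, 9.70, 9.70 and 9.72 in iPS cells, 8.78, 8.56, 8.67 and 8.13 in E14-mES, 8.57, 8.76, 8.57 and 8.59 in GFPoct4, 9.74, 9.58, 9.90 and 9.86 in C57-mES and 13.79, 13.94, 14.19 and 13.87 in FVB-sFB. FVB-sFB was highest by far, and iPS cells and C57-mES lay above the other 2 lines. The log2 fold change against FVB-sFB was -4.24 ± 0.12 for iPS cells (adjusted p = 6.97e-21) and -4.97 ± 0.09 for the ES lines (adjusted p = 2.38e-24). E14-mES was below C57-mES (-1.23 ± 0.12, adjusted p = 2.6e-09), as was GFPoct4 (-1.15 ± 0.12, adjusted p = 8.62e-09), and iPS cells exceeded E14-mES by 1.18 ± 0.12 and GFPoct4 by 1.09 ± 0.12. The calls of iPS cells over these lines were lost under median centring (0.68 and 0.73) and with the deposited values (0.34 and 0.55), and that of E14-mES against C57-mES with the deposited values (-0.90). Gpx8, a peroxidase of the endoplasmic reticulum membrane, read 8.70, 8.63, 8.91 and 8.61 in iPS cells, 8.98, 8.86, 8.91 and 8.45 in E14-mES, 10.58, 10.59, 10.65 and 10.73 in GFPoct4 and 9.14, 9.17, 8.98 and 9.13 in C57-mES, against 13.56, 13.59, 13.78 and 13.84 in FVB-sFB. It was lower than in FVB-sFB in iPS cells (-4.98 ± 0.11, adjusted p = 4.13e-23) and in the ES lines (-4.18 ± 0.09, adjusted p = 1.41e-23), and its 3 probes spanned -4.98 to -4.88 in iPS cells. Among pluripotent groups GFPoct4 stood out: it exceeded C57-mES by 1.53 ± 0.11 (adjusted p = 9.97e-12), and iPS cells (-1.92) and E14-mES (-1.84) lay below it. Some fibroblast markers were also higher in GFPoct4 than in C57-mES. The summed level of the 7 measured was 924 to 986 in iPS cells, 927 to 1238 in E14-mES and 4760 to 5269 in GFPoct4. It was 1396 to 1589 in C57-mES and 37765 to 44683 in FVB-sFB. Of the 7 markers Dcn, which encodes decorin (mean 11.71 in GFPoct4), and Pdgfra (8.59) were called higher in GFPoct4 than in C57-mES. Col1a1, Col3a1 and Lum were not above background on any GFPoct4 array. Mgst2 itself averaged 8.42 in GFPoct4 and 6.87 in FVB-sFB. The part of fibroblast markers in the readings of Gpx8 and Mgst2 was not tested.

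Gpx7, the endoplasmic reticulum relative of Gpx8, read 9.18, 9.32, 9.27 and 9.02 in iPS cells, 9.27, 9.33, 9.51 and 8.69 in E14-mES, 9.20, 9.63, 9.64 and 9.53 in GFPoct4 and 8.78, 8.89, 9.03 and 9.05 in C57-mES, against 11.43, 11.49, 11.55 and 11.59 in FVB-sFB. All pluripotent arrays lay below the FVB-sFB arrays. It was 4.99-fold lower in iPS cells (adjusted p = 3.17e-14) and 4.94-fold lower in the ES lines (adjusted p = 3.69e-16). Gpx2, the epithelial form known from the gut, was high in iPS cells at 9.92, 9.83, 10.02 and 9.65. The ES lines differed among themselves, with 9.27, 9.24, 9.27 and 8.53 in E14-mES, 6.63, 6.62, 6.88 and 6.67 in GFPoct4 and 9.94, 9.81, 9.84 and 10 in C57-mES, and in GFPoct4 1 of 4 arrays exceeded background. FVB-sFB read 6.32, 6.27, 6.12 and 6.46, with none above background. iPS cells were at least 8.48-fold above FVB-sFB (3.56 ± 0.13, adjusted p = 3.17e-18) and above GFPoct4 by 3.16 ± 0.13 (adjusted p = 9.58e-16), while against C57-mES the difference was -0.04 ± 0.13. E14-mES exceeded GFPoct4 by 2.38 ± 0.13 (adjusted p = 4.06e-13), and GFPoct4 lay below C57-mES (-3.20 ± 0.13, adjusted p = 5.21e-16). These 3 differences rest on GFPoct4 readings at or under background on 3 of 4 arrays, so the level there is only bounded from above. The mean of the 3 ES lines exceeded FVB-sFB by at least 3.45-fold (2.27 ± 0.11, 9 of 12 arrays above background), and iPS cells exceeded that mean by 1.30 ± 0.11, with arrays that overlapped; both averages hide the near-background GFPoct4 arrays. Gpx4, which removes phospholipid peroxides and so holds off ferroptosis, averaged 12.43 ± 0.12 in iPS cells and 11.41 ± 0.06 in FVB-sFB (SD, n = 4 each). The difference of 1.02 ± 0.18 passed the size for a call by a narrow margin and lost it without iPS array 1 (0.97), and at just under 1 without iPS array 3 or FVB-sFB array 3. For Gpx1, the main cytosolic form, iPS cells exceeded E14-mES by 1.13 ± 0.11, a call lost without E14-mES array 4 (0.99).

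The peroxiredoxins Prdx1 to Prdx4, which reduce peroxide with electrons from thioredoxin, were called in none of the 9 comparisons by their brightest probes. A second Prdx2 probe, above background on 20 arrays, was lower than in C57-mES in iPS cells (-1.64), E14-mES (-1.57) and GFPoct4 (-1.40). The brightest gave -0.45, -0.52 and 0.11 there. A second Prdx1 probe, above background on 9 arrays, gave 1.07 for GFPoct4 against C57-mES, and the brightest -0.07. Against FVB-sFB their log2 fold changes ranged from -0.74 (Prdx2) to 0.08 (Prdx4) in iPS cells, and in the ES lines from -0.52 (Prdx3) to -0.12 (Prdx1). Catalase, Cat, the peroxisomal enzyme that splits hydrogen peroxide, read 9.61, 9.59, 9.61 and 9.62 in iPS cells, 9.76, 9.82, 9.81 and 9.84 in E14-mES, 9.09, 9.14, 9.07 and 9.31 in GFPoct4, 8.54, 8.59, 8.52 and 8.50 in C57-mES and 8.39, 8.66, 8.43 and 8.30 in FVB-sFB. iPS cells and E14-mES were high, C57-mES and FVB-sFB low. iPS cells exceeded FVB-sFB by 1.16 ± 0.08 (adjusted p = 3.64e-12) and C57-mES by 1.07 ± 0.08 (adjusted p = 1.53e-10), and E14-mES exceeded C57-mES by 1.27 ± 0.08 (adjusted p = 4.16e-12). The iPS call over C57-mES was lost under median centring (0.81) and with the deposited values (0.57). Srxn1, sulfiredoxin, which rescues over-oxidised peroxiredoxins, had an order of its own: 11.16, 11.14, 11.14 and 11.03 in iPS cells, 9.80, 9.92, 9.82 and 9.53 in E14-mES, 9.46, 9.61, 9.60 and 9.66 in GFPoct4, 9.76, 9.76, 9.74 and 9.74 in C57-mES and 11.97, 11.90, 11.49 and 11.67 in FVB-sFB. The ES lines lay together at the bottom, iPS cells above them and FVB-sFB on top, with no overlap between these 3 levels. The ES lines were lower than FVB-sFB (-2.06 ± 0.08, adjusted p = 1.19e-17), and iPS cells higher than the ES lines by 1.42 ± 0.08 (adjusted p = 5.72e-13), than E14-mES by 1.35 ± 0.10, than GFPoct4 by 1.54 ± 0.10 and than C57-mES by 1.37 ± 0.10. All 3 Srxn1 probes had the same signs, from 1.29 to 1.42 for iPS cells against the ES lines. Thioredoxin, Txn1, and its reductase Txnrd1 were not called in any comparison (0.26 and 0.43 in iPS cells against FVB-sFB), and without E14-mES array 4 Txn1 was called lower in iPS cells than in E14-mES (-1.07). Over all arrays its brightest probe gave -0.84 there and -0.43 against the ES mean. Another Txn1 probe, above background on 14 arrays, had the opposite sign in both (0.27 and 0.25).

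Of the superoxide dismutases, Sod3, the extracellular enzyme, read 6.44, 6.8, 6.84 and 6.83 in iPS cells, 6.28, 6.11, 6.11 and 6.16 in E14-mES, 6.51, 6.60, 6.21 and 6.43 in GFPoct4 and 6.51, 6.59, 6.66 and 6.74 in C57-mES, none of them above background. In FVB-sFB it read 11.47, 11.54, 11.66 and 11.62, far above the other 4 groups. It was at least 26.6-fold lower in iPS cells (adjusted p = 2.52e-23) and at least 28.4-fold lower in the ES lines (adjusted p = 8.38e-26). Sod1, the cytosolic copper and zinc enzyme, moved the other way. It read 14.25, 14.16, 14.17 and 14.16 in iPS cells, 14.50, 14.46, 14.42 and 13.81 in E14-mES, 13.95, 14.45, 14.46 and 14.40 in GFPoct4 and 14.27, 14.27, 14.30 and 14.31 in C57-mES, against 12.89, 12.98, 12.90 and 13.10 in FVB-sFB. All pluripotent arrays were higher, by 1.22 ± 0.13 in iPS cells (adjusted p = 3.77e-09) and 1.33 ± 0.10 in the ES lines (adjusted p = 1.04e-11). Sod2, the mitochondrial manganese enzyme, exceeded FVB-sFB in iPS cells (1.20 ± 0.14, adjusted p = 4.15e-08), and for the ES lines the value was 0.69.

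The last role joins enzymes that handle quinones, heme and carbonyls, and it held the 2 largest called differences of these genes between iPS cells and the ES mean. Cbr3, a carbonyl reductase, read 12.70, 12.68, 12.56 and 12.59 in iPS cells, 11.74, 11.76, 11.70 and 10.99 in E14-mES, 8.54, 8.83, 8.63 and 8.99 in GFPoct4, 10.41, 10.30, 10.42 and 10.34 in C57-mES and 11.84, 11.81, 11.38 and 11.48 in FVB-sFB. The iPS arrays were highest, and the 3 ES lines formed separate levels, GFPoct4 the lowest. iPS cells exceeded the ES mean by 2.41 ± 0.11 (adjusted p = 1.74e-14), GFPoct4 by 3.88 ± 0.14 (14.8-fold) and C57-mES by 2.26 ± 0.14 (adjusted p = 7.99e-17 and 1.88e-12). E14-mES exceeded C57-mES by 1.18 ± 0.14 (adjusted p = 1.53e-07) and GFPoct4 by 2.80 ± 0.14 (adjusted p = 6.6e-14), and GFPoct4 lay below C57-mES (-1.62 ± 0.14, adjusted p = 6.02e-10). The ES mean lay below FVB-sFB (-1.41 ± 0.11, adjusted p = 3.58e-11), with overlapping arrays since E14-mES read like FVB-sFB. iPS cells lay above FVB-sFB by 1.00 ± 0.14, which narrowly met the size for a call and lost it without iPS array 1 or 2 or FVB-sFB array 3 or 4 (0.92 to 0.99) and without FVB-sFB arrays 3 and 4 together (0.81). The call over E14-mES (1.08 ± 0.14) was lost without E14-mES array 4 (0.89). Cbr1, a related carbonyl reductase, was not called in any comparison.

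Hmox1, heme oxygenase, which breaks heme down to biliverdin, iron and carbon monoxide, read 12.13, 12.01, 12.11 and 12.01 in iPS cells, 9.12, 9.02, 9.38 and 8.73 in E14-mES, 9.84, 9.60, 9.71 and 9.66 in GFPoct4, 11.00, 10.96, 10.97 and 11.05 in C57-mES and 11.10, 11.08, 10.33 and 10.72 in FVB-sFB. All iPS arrays exceeded all others, and the 3 ES lines again formed separate levels. iPS cells were higher than E14-mES by 3.0 ± 0.13 (7.98-fold, adjusted p = 4.72e-15), than GFPoct4 by 2.36 ± 0.13 and than C57-mES by 1.07 ± 0.13 (adjusted p = 4.06e-13 and 6.51e-07). The difference from the ES mean was 2.14 ± 0.11 (adjusted p = 6.62e-14), and E14-mES (-1.93 ± 0.13) and GFPoct4 (-1.29 ± 0.13) lay below C57-mES. Against FVB-sFB iPS cells were higher by 1.25 ± 0.13 (adjusted p = 8.55e-09), a call lost without FVB-sFB arrays 3 and 4 (0.97). The call over C57-mES was lost under median centring (0.89) and with the deposited values (0.65), and those over E14-mES and GFPoct4 were kept. The ES mean against FVB-sFB stood at -0.89, not called, and at -1.17 without those arrays, which was called. Nqo1, the quinone reductase often used as a readout of NRF2, did not follow Hmox1. It averaged 8.90 ± 0.13 in iPS cells, 9.55 ± 0.16 in E14-mES, 9.41 ± 0.16 in GFPoct4, 8.98 ± 0.06 in C57-mES and 10.23 ± 0.57 in FVB-sFB (SD, n = 4 each). It was lower in iPS cells than in FVB-sFB (-1.32 ± 0.17, adjusted p = 2.03e-07), and the call was lost without FVB-sFB arrays 1 and 2 (-0.83).

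**Figure D5:**
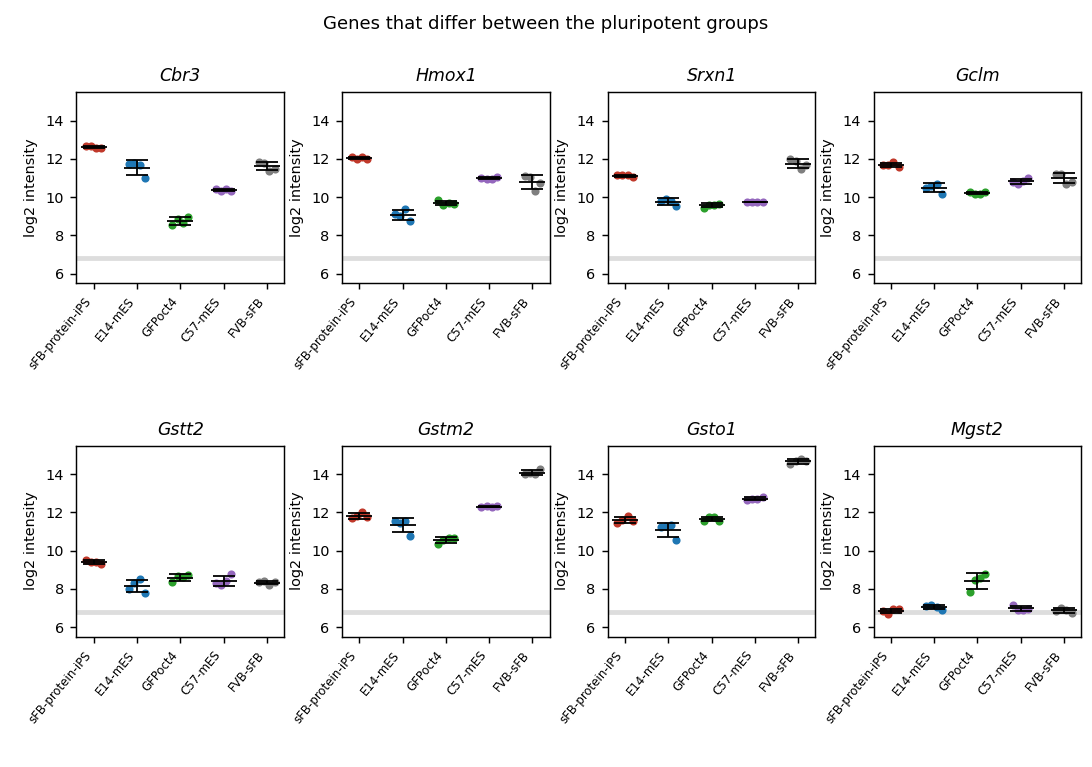
Log2 intensity (vertical axis) of 8 genes on each array (points) of the 5 groups, with mean and SD (bars) and the range of the background level (grey band). Cbr3, Hmox1 and Gclm are highest in iPS cells, Srxn1, Gstm2 and Gsto1 highest in FVB-sFB, and Mgst2 highest in GFPoct4.

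Against single ES lines the counts were as follows. iPS cells differed from E14-mES in 7 of the 48 genes, all higher, against 6.99% of all genes (3.18% higher and 3.81% lower), and without E14-mES array 4 in 6, of which 5 were higher: Cbr3 and Gpx1 were lost and Txn1 was added as lower. With median centring that count was 4 and with the deposited values 5, and in each Hmox1 was the 1 higher gene. Cbr3, Gclm, Gpx1, Gpx3, Gstt2 and Srxn1 were lost under both, at 0.68 to 0.93 and 0.34 to 0.64. From GFPoct4 iPS cells differed in 10 genes, 8 higher and 2 lower (6.29% of all genes, 2.69% higher and 3.6% lower). With the deposited values 5 were higher and 5 lower, where 1523 of all genes were called. Gpx3 and Gsta3 were lost under both other scalings and Gstm2 with the deposited values. From C57-mES iPS cells differed in 5, namely Cbr3, Srxn1, Cat and Hmox1 as higher and Gsto1 as lower (4.47% of all genes, 2.07% higher and 2.4% lower). With median centring the split was 2 and 2, and with the deposited values 1 and 3, where 803 and 1165 of all genes were called. Cbr3, Hmox1 and Srxn1 were called in all 3 of these comparisons, which share the iPS arrays. Under either other scaling none of the 3 was called in every one, since Cbr3 and Srxn1 lost the call over E14-mES and Hmox1 that over C57-mES, as did Srxn1 with the deposited values. Gclm was called against E14-mES (1.20) and GFPoct4 (1.47), and its value against C57-mES was 0.87.

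The ES lines also differed from each other in these genes. E14-mES differed from C57-mES in 9 genes, 3 higher (Cat, Cbr3 and Gstt3) and 6 lower (Hmox1, Gsto1, Gpx3, Gstp2, Gstm6 and Gstp1), against 7.3% of all genes (4.09% higher and 3.21% lower). Without E14-mES array 4 the count was 7, as Gstp2, Gstm6 and Gstp1 were lost and Txn1 was added as higher (1.05). Over all arrays the brightest Txn1 probe gave 0.82 there, and another, above background on 14 arrays, gave -0.19. Under median centring the split between these 2 lines was 4 and 3, and with the deposited values 4 and 2. Of all genes 1402 and 1481 were then called. GFPoct4 differed from C57-mES in 11 genes, 2 higher (Gpx8 and Mgst2) and 9 lower (Gpx2, Gstm2, Cbr3, Gstm6, Gsta3, Hmox1, Gpx3, Gstm1 and Gsto1), against 7.92% of all genes (4.45% higher and 3.47% lower). The split was the same under median centring and with the deposited values, where 1292 and 1206 of all genes were called. E14-mES differed from GFPoct4 in 6 genes, with Cbr3, Gpx2 and Gsta3 higher and Gpx8, Mgst2 and Gstp1 lower, against 1.96% of all genes (0.759% higher and 1.2% lower). Without E14-mES array 4 the count was 5, Gstp1 being lost. With the deposited values the split was 5 and 2, where 423 of all genes were called.

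Genes around these enzymes were read from lists chosen with earlier results of these data known. As above, 23.2% and 22.8% of all genes were called for iPS cells and the ES lines against FVB-sFB and 3.34% for iPS cells against the ES lines. Of 10 genes that control NRF2 activity, 3 were higher in iPS cells than in the mean of the ES lines and none lower. They were Mafg (1.65 ± 0.08), a small MAF partner, Bach1 (1.5 ± 0.14), the repressor, and Keap1 (1.38 ± 0.10), the adaptor that targets NRF2 for degradation. Against single lines 4 of the 10 were higher than in E14-mES, 4 than in GFPoct4 and 0 than in C57-mES, with none lower. Of all genes 6.99%, 6.29% and 4.47% were called there. Keap1 exceeded C57-mES by 0.72, which was not called. Keap1 read 10.49, 10.76, 10.68 and 10.69 in iPS cells, 9.16, 9.20, 9.09 and 8.59 in E14-mES, 8.93, 8.76, 8.93 and 8.88 in GFPoct4, 9.89, 9.98, 10.09 and 9.77 in C57-mES and 10.27, 10.32, 10.57 and 10.58 in FVB-sFB. Nfe2l2 itself was called in no comparison (0.15 and 0.54 in iPS cells against FVB-sFB and the ES lines). Against FVB-sFB the list had 2 higher and 1 lower in iPS cells (Bach1 2.44, Mafg 1.34 and Nfe2l1 -1.02), and 2 lower in the ES lines (Maff -1.89 and Keap1 -1.16). Of 14 further genes known as NRF2 targets, 5 were lower than in FVB-sFB and none higher, both in iPS cells and in the ES lines, among them Ephx1, the microsomal epoxide hydrolase (-4.76 and -2.97), and Akr1b8 (-2.25 and -1.99). Against the ES lines 2 of the 14 were lower in iPS cells, Esd (-1.83) and Ephx1 (-1.78), and none higher.

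Genes that feed glutathione and NADPH into these reactions changed in part. Against FVB-sFB their counts are read beside the shares of all genes, 11.7% higher and 11.5% lower in iPS cells and 11.8% and 11.1% in the ES lines. Of 13 genes of cysteine supply and glutathione turnover, 2 were higher and 3 lower in iPS cells than in FVB-sFB, and 3 higher and 1 lower in the ES lines. Cth and Cbs, the enzymes that make cysteine from homocysteine, were higher in iPS cells (3.10, and at least 2.93-fold) and in the ES lines (2.99, and at least 4.11-fold). Chac1, which degrades glutathione, was lower in iPS cells than in FVB-sFB (-2.85) and than in the mean of the ES lines (-2.22). The lines differed widely, with means of 10.35 in E14-mES, 11.79 in C57-mES and 13.49 in GFPoct4. iPS cells averaged 9.65 and FVB-sFB 12.50. Of 7 genes of NADPH supply, Idh2, the mitochondrial isocitrate dehydrogenase, was higher than in FVB-sFB in iPS cells (2.57) and in the ES lines (3.53), Tkt was higher and Idh1 lower in iPS cells (1.07 and -1.33), and Pgls was higher in iPS cells than in the ES lines (1.17). Of 22 other thioredoxin and glutaredoxin genes, 3 were higher and 6 lower in iPS cells than in FVB-sFB, and 3 higher and 3 lower in the ES lines. Glrx, glutaredoxin, fell (-2.51 and -2.49), as did the methionine sulfoxide reductase Msrb3 (at least 2.78-fold and at least 2.96-fold), while Txnip, which binds thioredoxin, rose (1.65 and 1.54). In the selenoprotein list, relevant because several Gpx enzymes carry selenocysteine, Sephs2 was the 1 gene of 5 called against FVB-sFB, higher in iPS cells (1.49) and the ES lines (1.72). Of 11 genes whose products make oxidants, Xdh, Maob and Nox4 were lower than in FVB-sFB in both and none was higher, a count close to the share of all genes called in either direction; Xdh was at least 6.99-fold lower in iPS cells and at least 7.46-fold lower in the ES lines.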

How the data were processed

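Per the labels' protocols, 500 ng of total RNA per sample was biotinylated and hybridised. The deposited table used here holds linear intensities of 25697 probes, exported with BeadStudio per the submitters' processing notes; the version is not given in the sources used here. The deposited log2 values equal the logarithm of those intensities to within 5e-09, so they carry no further normalization. Whether the authors normalized between arrays in their own work cannot be read from this. Detection p-values were not used here.

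Intensities were background-corrected by normexp with an offset of 50, quantile-normalized and put on the log2 scale with limma 3.58.1 in R 4.3.3. Probes were named from the platform annotation: 23978 had 1 gene symbol and 1719 none. For a gene with several probes the one with the highest mean over all arrays was used, which gave 16593 genes. Columns of per-sample values not used numbered 0.

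A linear model with 5 groups of 4 arrays was fitted to all genes, with limma's moderated test and Benjamini-Hochberg adjustment over all genes, which gives every adjusted p printed. A call needed an adjusted p under 0.05 and a log2 fold change of at least 1 in size. Errors of fold changes are standard errors and errors of means are SD. The level on each array that a probe had to exceed to count as above background was the 95th percentile of 1305 receptor probes, and a lower bound on a fold takes, on each dim array, whichever is greater of that level and the reading itself. The script was tested on simulated data.

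The members, the lists and the rules were chosen with earlier results of these data known. Members described array by array are those with up to 6 of the greatest called changes in either direction in the comparisons of iPS cells and the ES mean with FVB-sFB and with each other, and up to 3 in the other 6 comparisons. From each list of further genes up to 4 calls per comparison by size could be named, with Nfe2l2, Keap1 and Nnt. Nnt did not exceed background on any array. Alternatives were median centring, the deposited log2 values, no background correction, a filter on dim probes, the mean of all probes, only the groups compared, no minimum fold change, a replicate block, and each array or FVB-sFB pair left out. Same-numbered arrays of different groups were checked for shared deviations, which gave correlations of -0.330 to 0.246, with 5 of 40 pairs over 0.1, so numbers were not taken as pairs. Within FVB-sFB arrays 1 and 2 correlated at 0.521 and arrays 3 and 4 at 0.386. Protein identity between members was not analysed here.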

Additional observations from a re-analysis of the deposited data

Results flagged for a closer look

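In each group of 4 arrays a value was singled out where its gap to the nearest other array exceeded the 95% critical value of Dixon's test; chance marks about 1 in 20 groups. Of 110 groups (22 genes, 5 groups each) 16 were marked, and 9 of them by E14-mES array 4 as the lowest. That array read 10.99 for Cbr3, 8.53 for Gpx2, 11.70 for Gsta4, 10.77 for Gstm2 and 10.56 for Gsto1. It read 11.00 for Gstp1, 10.95 for Gstp2, 7.27 for Mgst1 and 13.81 for Sod1. The same array had the highest raw median intensity.

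In GFPoct4, array 1 was lowest for Gstp2 (12.04) and Sod1 (13.95), and array 2 highest for Gpx3 (8.76). GFPoct4 array 1 gave the lowest value of its group for 26 of the 48 genes (54.2%), and for 27.6% of all genes. In iPS cells array 1 was highest for Sod1 (14.25) and lowest for Sod3 (6.44), which did not exceed background there, and array 4 was lowest for Srxn1 (11.03). In FVB-sFB array 4 was highest for Gstm2 (14.25). The causes were not tested.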

How the results depend on the processing

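Over 95 called genes and comparisons, 1607 of 1699 recomputed values kept their direction and call, 92 lost the call and 0 reversed; 33 of the 95 lost it under at least 1 alternative. Median centring lost 24 calls, the deposited values 28, leaving out single arrays 26, the mean of all probes 9 and no background correction 2 and the FVB-sFB pairs 1 and 2, and the cause was not tested. With no minimum fold change, smaller differences count by construction. The number of genes called was then 31 for iPS cells and 36 for the ES mean against FVB-sFB, and 24 for iPS cells against the ES mean. For iPS cells against E14-mES, GFPoct4 and C57-mES it was 22, 29 and 16. Among ES lines it was 22 for E14-mES against C57-mES, 25 for GFPoct4 against C57-mES and 20 for E14-mES against GFPoct4. With median centring 4 genes were called for iPS cells against E14-mES, where 1691 of all genes were.

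Leaving out single arrays, the counts ran from 21 to 23 for iPS cells and 18 to 20 for the ES mean against FVB-sFB, and from 5 to 6 for iPS cells against the ES mean. For iPS cells they ran from 6 to 7 against E14-mES, 9 to 10 against GFPoct4 and 5 to 6 against C57-mES. For E14-mES against C57-mES they ran from 7 to 10 and against GFPoct4 from 5 to 6, and for GFPoct4 against C57-mES the count was 11 throughout. Without FVB-sFB arrays 1 and 2 or arrays 3 and 4, iPS cells had 23 and 22 calls against FVB-sFB and the ES mean 19 and 20.

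With the replicate number as a block all 95 calls were kept and the counts were equal in the 9 comparisons, 23 for iPS cells and 18 for the ES mean against FVB-sFB; for 6 of 20 arrays the closest array in another group bore the same number. Low signal limits Gclc, Gpx5, Gpx6, Gsta1, Gsta2, Gstm3 and Gstt4, which lay at or near background.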
